A study of Mus musculus with 4 samples.

Results

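The genes described here are 10 targets of the hypoxia-inducible factors (HIF), chosen by name for their part in the response to low oxygen: Vegfa, Adm, Slc2a1, Hk2, Pfkfb3, Ldha, Pdk1, Bnip3, Egln3 and Ddit4. They were found through the RefSeq accessions of their probes and are 10 of the 16530 features with a symbol and of 33260 features in all, where a feature is a gene symbol or, for a probe without one, its accession. They were read by 15 probes, and all 15 were well above background in all 8 array channels, so 10 of 10 genes passed the filter on dim probes. The ischemic tissue came from male C57BL/6J mice aged 9 weeks, 6 h after their middle cerebral artery was permanently blocked by an intraluminal filament (PMCAO) and 1 µl of saline was given into the cerebral ventricle. Blood flow is lowest in the core of such a stroke, and the penumbra surrounds it with part of its flow preserved. Ischemic core was set against healthy core on core replicates 1 and 2, and ischemic penumbra against healthy penumbra on penumbra replicates 3 and 4, so that 4 tissues were measured on 4 2-color arrays of 1 slide. The labels give strain C57BL/6J for the healthy tissue too, but do not say whether it was cut from the opposite hemisphere or from different mice, nor whether the 3 mice of a group were pooled. Ischemic RNA carried Cy5 on replicates 1 (core) and 3 (penumbra), and Cy3 on replicates 2 (core) and 4 (penumbra).

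In background terms, HIF is a pair of subunits whose oxygen-sensitive member is marked for breakdown by prolyl hydroxylases while oxygen is at hand, and which builds up when oxygen is short. It then binds short DNA motifs near its target genes, among them genes for blood vessel growth, glucose uptake, glycolysis, the shunting of pyruvate away from mitochondria, the removal of mitochondria and the brake on HIF itself. In ischemic brain, Vegfa, Adm and Slc2a1 are well-known members of this response.

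The letters that HIF is known to bind have the core ACGTG or GCGTG, and both were searched on both strands in the 250 bases before each RefSeq transcript start of the GRCm38.p6 assembly. ACGTG also lies inside CACGTG, the E-box bound by other factors. The 10 genes had 14 such windows. ACGTG was found in 64.3% of these windows, against 16.6% of all 32851 windows and 18.9% of the windows of genes on the array. GCGTG was found in 57.1%, against 28.2% and 36.8%. Either motif was found in 85.7% of the members' windows, against 38.6% of all windows and 47.3% of the windows of genes on the array. By gene, 8 of 10 had ACGTG and 10 of 10 had either motif in at least 1 window. No share by gene was computed over all genes, and a gene with more windows has more places for a match. These genes are known HIF targets, a match is a description of letters only, and no binding was measured here. The windows below lie wholly outside the annotated gene. Those of Adm, Egln3 and Hk2 belong to genes above 0.26 log2 on each array of both regions. Those of Slc2a1 and Bnip3 belong to genes with mean ratios near 0. For Slc2a1 the arrays of each region lay on both sides of 0, so no direction can be read from its means. Capitals mark ACGTG or GCGTG, or their reverse complements, and each run ends at the base before the transcript start.
Adm, chr7:110627407-110627656, plus strand: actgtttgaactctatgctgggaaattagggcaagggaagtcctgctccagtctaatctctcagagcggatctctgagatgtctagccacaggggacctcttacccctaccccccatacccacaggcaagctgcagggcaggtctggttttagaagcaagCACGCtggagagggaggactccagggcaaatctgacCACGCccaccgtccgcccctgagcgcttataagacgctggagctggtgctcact
Egln3, chr12:54203875-54204124, minus strand: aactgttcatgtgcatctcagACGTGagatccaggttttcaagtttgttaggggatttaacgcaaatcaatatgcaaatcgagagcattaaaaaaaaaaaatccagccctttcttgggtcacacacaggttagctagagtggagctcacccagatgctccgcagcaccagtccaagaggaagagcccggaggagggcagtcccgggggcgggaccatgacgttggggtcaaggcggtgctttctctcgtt
Hk2, chr6:82774455-82774704, minus strand: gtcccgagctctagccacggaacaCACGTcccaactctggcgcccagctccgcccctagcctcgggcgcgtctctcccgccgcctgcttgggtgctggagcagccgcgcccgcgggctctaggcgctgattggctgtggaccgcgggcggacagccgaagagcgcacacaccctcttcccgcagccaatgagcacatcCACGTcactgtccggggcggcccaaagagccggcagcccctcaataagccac
Slc2a1, chr4:119108495-119108744, plus strand: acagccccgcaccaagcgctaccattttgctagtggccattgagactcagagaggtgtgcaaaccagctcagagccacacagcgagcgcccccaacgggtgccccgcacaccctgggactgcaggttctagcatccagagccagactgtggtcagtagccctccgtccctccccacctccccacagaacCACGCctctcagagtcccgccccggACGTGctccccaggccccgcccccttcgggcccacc
Bnip3, chr7:138909507-138909756, minus strand: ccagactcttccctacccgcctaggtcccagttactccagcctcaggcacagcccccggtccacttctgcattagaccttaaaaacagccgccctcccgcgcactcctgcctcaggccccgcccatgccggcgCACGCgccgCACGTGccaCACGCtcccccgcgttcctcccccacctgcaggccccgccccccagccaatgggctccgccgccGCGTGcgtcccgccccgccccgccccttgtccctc
The Bnip3 window held 5 matches, the Slc2a1, Hk2 and Adm windows 2 each and the Egln3 window 1, so the count of matches did not follow the order of the ratios given below. CACGTG reads as ACGTG on both strands and counts as 2 matches, as it does in the Bnip3 window. The first Vegfa window held 0 matches. Its second window, which lies inside the annotated gene, held 2, and Vegfa has a match through that window alone.

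Each ratio below is the log2 of ischemic over healthy signal on 1 array, relative to spots of like intensity on it (loess). Errors are the SD between the 2 arrays of a region, which carry opposite dye orientations. Since the labels do not say that these arrays held separate extracts, each pair counts as 1 replicate and a call rests on size: a mean of 2-fold or more, with each array past 1.5-fold the same way. By this rule 0 of 10 members were called in the core, where 0.31% of 24536 features were called, and 0 of 10 in the penumbra, where 0.245% of 24919 features were called. The members, which were chosen with earlier results of these data known, did have ratios above 0 more often than features at large. In the core 6 of 10 were above 0 on both arrays, against 26.9% of features, and 4 of 10 were above 0.26 log2 (1.2-fold) on both, against 4.15%. In the penumbra 6 of 10 were above 0 on both arrays, against 30.3% of features, and 4 of 10 were above 0.26 log2 on both, against 5.14%. The features include some that were well above background in only 1 tissue of a region. No share was computed among features as bright as the members. The 4 genes past 0.26 log2 were Adm, Pfkfb3, Egln3 and Hk2 in the core and in the penumbra alike. The median of the 10 ratios was 0.27 in the core and 0.26 in the penumbra, against -0.01 over all features in each region. In bulk tissue, fewer cells of a type and less RNA per cell cannot be told apart.

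**Figure D1:**
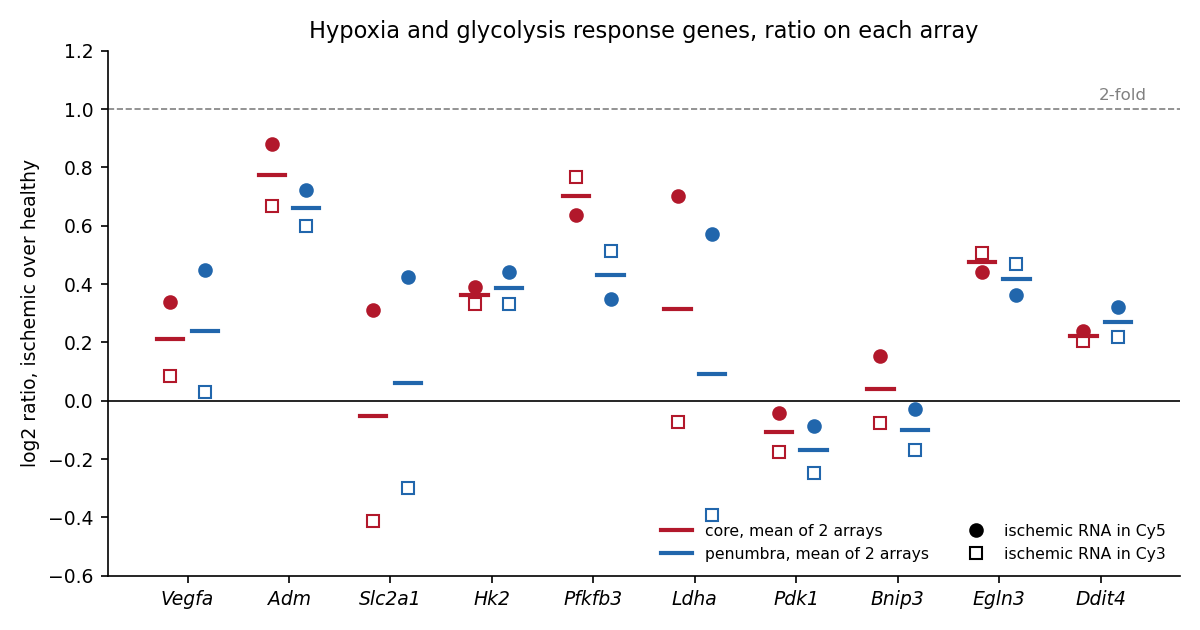
Log2 ratio of ischemic over healthy signal (vertical axis) for the 10 genes, with core arrays in red and penumbra arrays in blue. Filled circles are arrays with ischemic RNA in Cy5, open squares those with it in Cy3, bars are means of 2 arrays and the dashed line is 2-fold. Adm is highest in both regions, with means of 0.77 (core) and 0.66 (penumbra), and Ldha and Slc2a1 have their arrays on both sides of 0.

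Among the secreted factors, Adm had the highest ratios of the set. Adm, at chr7:110627657-110629820, encodes adrenomedullin, a peptide that widens blood vessels. Its log2 ratio was 0.88 and 0.67 on core replicates 1 and 2, a mean of 0.77 ± 0.15 or 1.71-fold, and 0.72 and 0.60 on penumbra replicates 3 and 4, a mean of 0.66 ± 0.09 or 1.58-fold. All 4 arrays were well above 0, and only 149 of 24536 features in the core and 209 of 24919 in the penumbra were at or above its mean, itself included. Limma over arrays, whose p-values measure only the spread between arrays, gave Benjamini-Hochberg adjusted p = 0.0111 in the core and 0.0184 in the penumbra. As log2 channel intensity, its level was 10.61 in Cy5 and 10.51 in Cy3 in ischemic core, against 9.73 in Cy3 and 9.85 in Cy5 in healthy core. It was 10.62 in Cy5 and 10.46 in Cy3 in ischemic penumbra, against 9.89 in Cy3 and 9.86 in Cy5 in healthy penumbra. The ischemic pieces overlapped each other and lay above both healthy pieces, which differed from each other by less than the SD between dyes.

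Vegfa, at chr17:46016993-46032377, encodes a growth factor for blood vessels that also makes them leaky. Its brightest probe had log2 ratios of 0.34 and 0.09 in the core, a mean of 0.21 ± 0.18, and of 0.45 and 0.03 in the penumbra, a mean of 0.24 ± 0.30, so that 1 array of each region was close to 0. The gene's other probes read higher. A probe printed at 10 spots gave 0.38 ± 0.12 (1.30-fold) in the core and 0.45 ± 0.12 (1.36-fold) in the penumbra. On that probe the mean over spots was 0.30 (SD 0.06, 10 spots) on core replicate 1, 0.47 (SD 0.05, 10 spots) on core replicate 2, 0.36 (SD 0.03, 9 spots) on penumbra replicate 3 and 0.53 (SD 0.06, 10 spots) on penumbra replicate 4, with every used spot above 0. The other single-spot probe gave 0.39 ± 0.12 in the core and 0.45 ± 0.22 in the penumbra. All probes of Vegfa thus had means above 0 in both regions, between 0.21 and 0.45. Limma over arrays gave the brightest probe adjusted p = 0.493 in the core and 0.307 in the penumbra. Its level was 12.26 in Cy5 and 12.23 in Cy3 in ischemic core, against 11.92 in Cy3 and 12.14 in Cy5 in healthy core, and 12.37 in Cy5 and 12.11 in Cy3 in ischemic penumbra, against 11.92 in Cy3 and 12.08 in Cy5 in healthy penumbra. Each ischemic piece lay above its healthy piece, while core and penumbra of the same state overlapped.

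Of the 4 genes of glucose uptake and glycolysis, Pfkfb3 and Hk2 were above 0 on every array, and Slc2a1 and Ldha were not. Pfkfb3, at chr2:11471430-11554071, makes and breaks down fructose 2,6-bisphosphate, which speeds up glycolysis. It had log2 ratios of 0.64 and 0.77 in the core, a mean of 0.70 ± 0.09 (1.62-fold), and of 0.35 and 0.51 in the penumbra, a mean of 0.43 ± 0.12 (1.35-fold). Limma over arrays gave adjusted p = 0.0129 in the core and 0.0492 in the penumbra. Its other probes read lower, at 0.44 ± 0.01 and 0.39 ± 0.01 in the core and at 0.40 ± 0.23 and 0.21 ± 0.12 in the penumbra, but all 3 probes were above 0 on all 4 arrays. Its level was 13.04 in Cy5 and 13.17 in Cy3 in ischemic core, against 12.41 in both dyes in healthy core, and 12.87 in Cy5 and 13.11 in Cy3 in ischemic penumbra, against 12.52 in Cy3 and 12.60 in Cy5 in healthy penumbra. The order was ischemic core, ischemic penumbra, healthy penumbra and healthy core, in which the ischemic pieces overlapped and the healthy pieces did not.

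Hk2, at chr6:82725025-82774454, encodes a hexokinase, which traps glucose in the cell as its phosphate. Its log2 ratio was 0.39 and 0.33 in the core, a mean of 0.36 ± 0.04 (1.28-fold), and 0.44 and 0.33 in the penumbra, a mean of 0.39 ± 0.08 (1.31-fold). The 4 arrays spanned a narrow range above 0, and limma over arrays gave adjusted p = 0.0700 in the core and 0.050 in the penumbra. Its level was 8.81 in Cy5 and 8.75 in Cy3 in ischemic core, against 8.42 in both dyes in healthy core, and 8.79 in Cy5 and 8.90 in Cy3 in ischemic penumbra, against 8.34 in Cy3 and 8.57 in Cy5 in healthy penumbra. Core and penumbra of the same state overlapped, and both ischemic pieces lay above both healthy ones.

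Slc2a1, at chr4:119108745-119137330, encodes GLUT1, the glucose transporter of the blood-brain barrier. It had log2 ratios of 0.31 and -0.41 in the core, a mean of -0.05 ± 0.51, and of 0.42 and -0.30 in the penumbra, a mean of 0.06 ± 0.51. The sign followed the dye orientation in both regions, the means were far smaller than the SD, and no direction can be read. Its level in each of the 4 tissues was higher in Cy5 (14.98 to 15.11) than in Cy3 (14.56 to 14.71), and all 4 tissues overlapped. Markers of endothelial cells, which carry much of this transporter, had a median log2 ratio of 0.06 in the core and 0.03 in the penumbra, with 0 of 9 called. Their summed intensity was 19150 to 20425 in ischemic core, against 18905 to 19425 in healthy core, and 18400 to 18759 in ischemic penumbra, against 17711 to 19240 in healthy penumbra.

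Ldha, at chr7:46842274-46855627, encodes a subunit of lactate dehydrogenase, which turns pyruvate into lactate. Its brightest probe had log2 ratios of 0.70 and -0.07 in the core, a mean of 0.31 ± 0.55, and of 0.57 and -0.39 in the penumbra, a mean of 0.09 ± 0.68. The second probe gave 0.06 ± 0.10 in the core and 0.00 ± 0.12 in the penumbra, with the opposite sign to the brightest probe on each array. Limma with a term for the dye gave the brightest probe adjusted p = 0.00349 in the core and 0.220 in the penumbra. That term takes up the dye difference that core and penumbra share, so these values do not measure the SD between arrays. In ischemic core the level was 16.41 in Cy5 and 15.18 in Cy3, a span that holds the values of all other tissues: 15.71 in Cy3 and 15.25 in Cy5 in healthy core, 16.36 in Cy5 and 15.93 in Cy3 in ischemic penumbra, and 15.79 in Cy3 and 16.32 in Cy5 in healthy penumbra.

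The mitochondrial genes had means between -0.17 and 0.04. Pdk1, at chr2:71873215-71903858, encodes a kinase that shuts down pyruvate dehydrogenase and so keeps pyruvate out of the mitochondrion. It had log2 ratios of -0.04 and -0.18 in the core, a mean of -0.11 ± 0.10, and of -0.09 and -0.25 in the penumbra, a mean of -0.17 ± 0.11. It was the 1 member below 0 on all 4 arrays, and 28% of features in the core and 32.4% in the penumbra were below 0 on both arrays. Its level was 10.66 in Cy5 and 10.58 in Cy3 in ischemic core, against 10.70 in Cy3 and 10.76 in Cy5 in healthy core, and 10.21 in Cy5 and 10.11 in Cy3 in ischemic penumbra, against 10.30 in Cy3 and 10.36 in Cy5 in healthy penumbra. The 4 tissues did not overlap, with both core pieces above both penumbra pieces.

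Bnip3, at chr7:138890836-138909506, encodes a protein of the outer mitochondrial membrane that takes part in mitophagy and cell death. Its log2 ratio was 0.15 and -0.08 in the core, a mean of 0.04 ± 0.16, and -0.03 and -0.17 in the penumbra, a mean of -0.10 ± 0.10. Both means were smaller in size than their SD, and limma over arrays gave adjusted p = 0.906 in the core and 0.565 in the penumbra. Both penumbra arrays were below 0, as they were for 32.4% of features. Its level was 15.02 in Cy5 and 14.99 in Cy3 in ischemic core, against 14.87 in Cy3 and 15.06 in Cy5 in healthy core, and 14.80 in Cy5 and 14.78 in Cy3 in ischemic penumbra, against 14.82 in Cy3 and 14.95 in Cy5 in healthy penumbra. Ischemic penumbra was the lowest tissue and overlapped none of the others, while ischemic and healthy core overlapped.

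The genes of feedback and growth control were above 0 on all 4 arrays. Egln3, at chr12:54178981-54203874, encodes a prolyl hydroxylase that marks HIF for breakdown and is itself a HIF target. Its log2 ratio was 0.44 and 0.51 in the core, a mean of 0.47 ± 0.05 (1.39-fold), and 0.36 and 0.47 in the penumbra, a mean of 0.42 ± 0.08 (1.33-fold). Limma over arrays gave adjusted p = 0.0318 in the core and 0.0418 in the penumbra. Its level was 9.21 in Cy5 and 9.27 in Cy3 in ischemic core, against 8.77 in Cy3 and 8.76 in Cy5 in healthy core, and 8.78 in Cy5 and 8.86 in Cy3 in ischemic penumbra, against 8.42 in Cy3 and 8.39 in Cy5 in healthy penumbra. Ischemic core stood above the rest, healthy penumbra below, and ischemic penumbra (mean 8.82) lay just above healthy core (mean 8.76).

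Ddit4, at chr10:59949675-59951770, encodes REDD1, which holds back the growth kinase mTOR under hypoxia and other stresses. Its log2 ratio was 0.24 and 0.21 in the core, a mean of 0.22 ± 0.02 (1.17-fold), and 0.32 and 0.22 in the penumbra, a mean of 0.27 ± 0.07 (1.21-fold). Limma over arrays gave adjusted p = 0.219 in the core and 0.101 in the penumbra. Its level was 15.42 in Cy5 and 15.44 in Cy3 in ischemic core, against 15.19 in Cy3 and 15.24 in Cy5 in healthy core, and 15.79 in Cy5 and 15.85 in Cy3 in ischemic penumbra, against 15.46 in Cy3 and 15.63 in Cy5 in healthy penumbra. Here both penumbra pieces lay above both core pieces, the reverse of Pdk1.

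**Figure D2:**
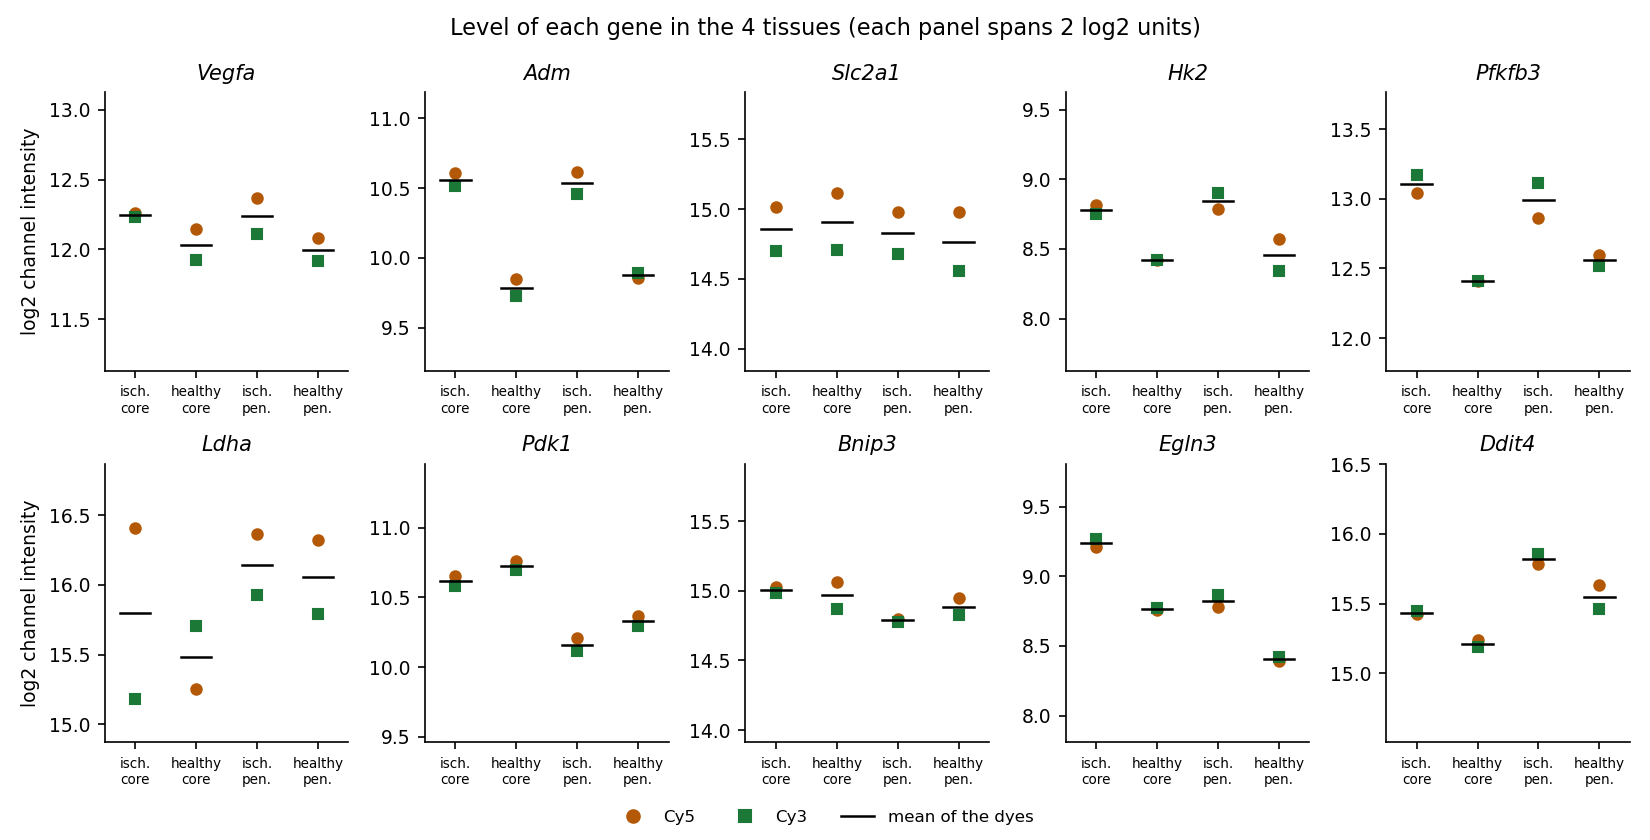
Log2 channel intensity (vertical axis, 2 log2 units in every panel) of each gene in ischemic core, healthy core, ischemic penumbra and healthy penumbra, with Cy5 as orange circles, Cy3 as green squares and the mean of the dyes as a bar. The ischemic pieces of Adm, Pfkfb3 and Hk2 lie above their healthy pieces, Pdk1 separates core from penumbra, and the dyes of Ldha in ischemic core lie at 16.41 and 15.18.

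Across the set, 3 of 10 members had an adjusted p under 0.05 by limma over arrays in the core, where 1.96% of features did so with a higher ratio, and 3 of 10 in the penumbra, against 2.52%. These were Adm, Pfkfb3 and Egln3 in both regions. Values smaller than their SD between arrays were found for 3 core and 4 penumbra means. The SDs of Ldha and Slc2a1 were above 0.50 log2 in both regions, against a median of 0.10 over all features. A fit with a term for the dye, which takes that part of the spread out, gave an adjusted p under 0.05 with a higher ratio for 7 of 10 members in the core, against 13.1% of features, and for 6 of 10 in the penumbra, against 18.5%. The 7 in the core were Adm, Pfkfb3, Egln3, Hk2, Ldha, Ddit4 and Vegfa, and the 6 in the penumbra were the same genes without Ldha. It gave the same with a lower ratio for 0 members in the core, against 9.24% of features. In the penumbra it did so for 1 member, Pdk1, with adjusted p = 0.0257 from limma, against 17.3%. This fit puts a core, a penumbra and a dye term on 4 arrays, which leaves little spread to judge error by. Its standard errors in the core ran from 0.049 (Slc2a1) to 0.054 (Ldha), although the SD of Ldha was 0.55. Ldha counts by its brightest probe, and its second probe read 0.06 ± 0.10 in the core.

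These ratios depend on the scale they are set against. Scaled to the 10 spike-in control transcripts, with 312 spots on each array, every ratio was lower by 0.47 log2 in the core and by 0.40 in the penumbra. This takes the control mixes as equal in amount across arrays, which the labels do not state. On that scale the mean log2 ratio of Adm was 0.30 in the core and 0.26 in the penumbra, that of Pfkfb3 0.23 and 0.03. Egln3 lay at 0.00 in the core and 0.02 in the penumbra. Vegfa, Hk2, Ldha, Bnip3 and Ddit4 then changed sign to below 0 in the core, and Vegfa, Slc2a1, Hk2, Ldha and Ddit4 did so in the penumbra. Pdk1 was the lowest member on this scale, at -0.58 (core) and -0.56 (penumbra). The order of the members was unaffected, since every ratio of a region moved by the same amount.

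**Figure D3:**
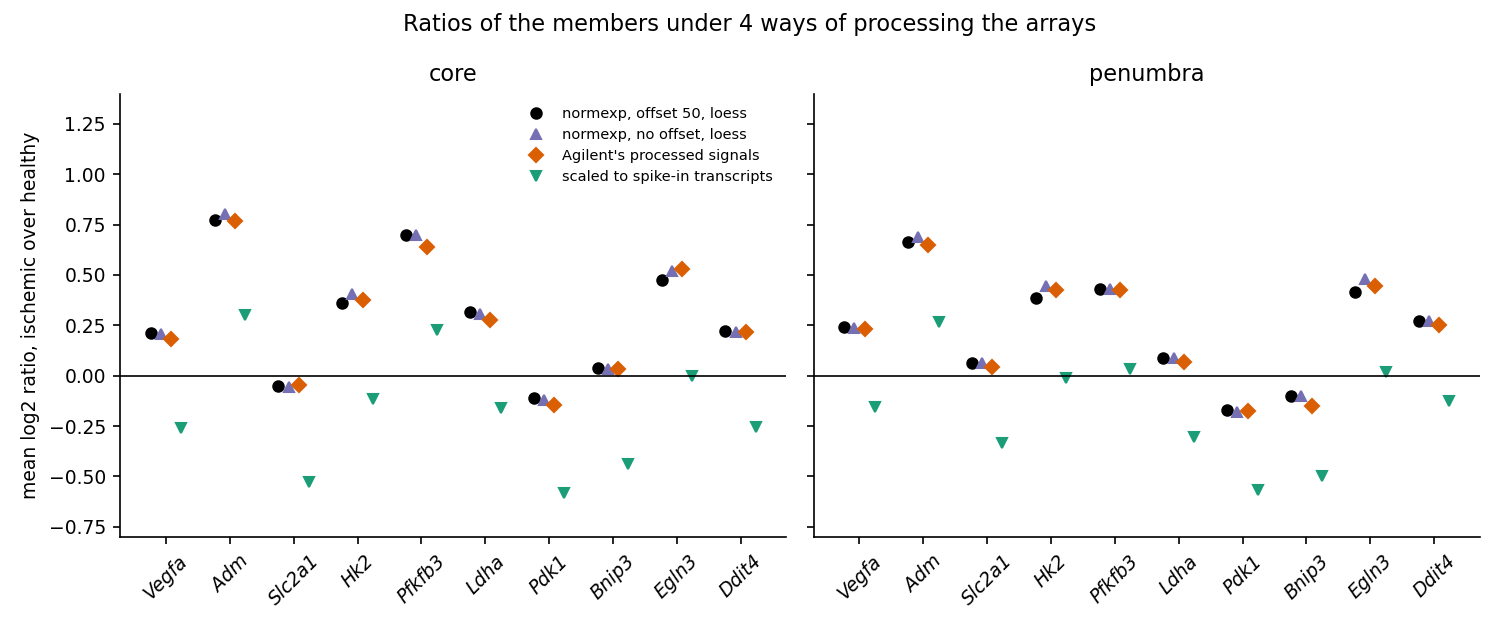
Mean log2 ratio of ischemic over healthy signal (vertical axis) of each gene in the core (left) and the penumbra (right) under 4 ways of processing, given by the marker. Circles, upward triangles and diamonds lie close together, and the downward triangles, scaled to spike-in transcripts, lie lower by 0.47 (core) and 0.40 (penumbra).

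The core response was then set against the penumbra response. A difference was called at 1 log2 unit or more, with both core arrays on one side of both penumbra arrays. By this rule 0 of 10 members were called, and 0.0594% of 25251 features were. Pfkfb3 had the largest difference, 0.27 log2 higher in the core than in the penumbra. Its brightest probe read 0.64 and 0.77 on the core arrays and 0.35 and 0.51 on the penumbra arrays. How many features separate the regions in this way was not computed. Its difference had an adjusted p of 1.00 by limma over arrays and of 0.0774 by limma with the dye term. On its second probe the core arrays (0.43 and 0.45) lay within the span of the penumbra arrays (0.56 and 0.23). On its remaining probe the regions did not overlap, at 0.38 and 0.40 on the core arrays and 0.29 and 0.12 on the penumbra arrays. Ldha followed at 0.22, with arrays that overlapped widely. The other 8 members differed by -0.11 (Slc2a1) to 0.14 (Bnip3), Adm among them by 0.11. No member's difference passed either limma fit. Core and penumbra arrays lay on 1 slide, and the labels do not say whether the regions came from the same mice.

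Some of the 10 genes had unlike levels in core and penumbra pieces, in ischemic and in healthy tissue alike. Levels of core and penumbra were compared within each dye, and the error is the SD between dyes. Pdk1 was higher in ischemic core than in ischemic penumbra by 0.46 ± 0.02 log2 (1.37-fold), and in healthy core than in healthy penumbra by 0.40 ± 0.00 (1.32-fold). Egln3 was likewise higher by 0.42 ± 0.02 in the ischemic core and by 0.36 ± 0.01 in the healthy core. Ddit4 was lower, at -0.39 ± 0.03 in ischemic and -0.34 ± 0.08 in healthy pieces. Past 0.26 log2 in both dyes, 2 of 10 members were higher in the core in each state, against 9.31% of features in ischemic and 7.47% in healthy pieces, and 1 of 10 was lower, against 7.96% and 6.53%. None of the 10 reached the size rule in either comparison, while 1.35% of features were called between ischemic and 1.13% between healthy pieces.

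Bnip3 was 0.22 ± 0.01 higher in ischemic core than in ischemic penumbra, and the healthy pieces differed by 0.08 ± 0.05. Slc2a1 was higher in healthy core than in healthy penumbra by 0.14 ± 0.01 and differed by 0.03 ± 0.01 between ischemic pieces. Pfkfb3 was 0.12 ± 0.08 higher in ischemic core than in ischemic penumbra, and 0.15 ± 0.06 lower in healthy core than in healthy penumbra. Ldha, at -0.35 ± 0.56 and -0.58 ± 0.69, could not be placed. Scaled to spike-in transcripts, the differences of Pdk1 were 0.62 between ischemic and 0.55 between healthy pieces, those of Egln3 0.58 and 0.51, and those of Ddit4 -0.23 and -0.19. The spike-in transcripts themselves differed, core minus penumbra, by -0.41 in Cy5 and 0.10 in Cy3 between ischemic pieces. Between healthy pieces they differed by -0.23 in Cy5 and -0.07 in Cy3.

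The pieces also held different tissue. Choroid plexus markers, such as Ttr, were called lower in the core for 8 of 8 genes in ischemic pieces (median -3.99) and for 8 of 8 in healthy pieces (median -3.34). Striatal neuron markers were called lower for 6 of 8 genes between ischemic pieces (median -1.47) and for 7 of 8 between healthy pieces (median -1.85). Cortical neuron markers were at a median of 0.70 and 0.46, with 2 of 8 called higher in each. Against these, Bcl11b of the same list was called lower between healthy pieces, at -1.04 ± 0.01, and was at -0.94 ± 0.07 between ischemic pieces. Oligodendrocyte markers were at -0.76 and -0.77. The part of this in the levels of Pdk1, Egln3 and Ddit4 was not tested.

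Markers of other cells also differed between ischemic and healthy tissue. Neutrophil markers had 3 of 6 genes called higher in each region, with medians of 1.53 in the core and 1.03 in the penumbra. Their summed intensity was 13367 to 14628 in ischemic core, against 2710 to 2789 in healthy core, and 10370 to 13551 in ischemic penumbra, against 3331 to 3606 in healthy penumbra. In the penumbra, 8 of 8 choroid plexus markers were above 0 on both arrays (median 0.67), with sums of 36537 to 39574 in ischemic penumbra, against 23146 to 24673 in healthy penumbra. In the core these sums were 1647 to 1654 in ischemic core, against 1706 to 1752 in healthy core. Meningeal markers were above 0 for 7 of 7 genes in the penumbra (median 0.46), with sums of 18041 to 18533 in ischemic penumbra, against 12941 to 13215 in healthy penumbra. In the core 0 of these 7 were above and 5 below 0 on both arrays (median -0.14), with sums of 14492 to 15038 in ischemic core, against 15984 to 17154 in healthy core. Striatal neuron markers were above 0 on both arrays for 5 of 8 genes in the core (median 0.17), and below 0 for 6 of 8 in the penumbra (median -0.17). Over all features, 26.9% were above and 28% below 0 on both core arrays. On both penumbra arrays 30.3% were above and 32.4% below. The part of these cells in the ratios of the 10 genes was not tested. As a check of the tissue label, 7 of 7 neuron, 7 of 7 astrocyte, 7 of 7 oligodendrocyte and 7 of 7 microglia markers were well above background in all channels.

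The wider pathway was read through 9 gene lists, and in none of them was a gene called in either region. Over all features, 0.31% were called in the core and 0.245% in the penumbra. In the core 26.9% of features were above and 28% below 0 on both arrays, and in the penumbra 30.3% and 32.4%. A count near these shares does not set a list apart. Of 11 HIF subunits and oxygen sensors, 2 were above 0 on both arrays and 1 below in the core (median 0.01), and 2 above and 5 below in the penumbra (median -0.09). Cited2, which competes with HIF for its coactivators, was highest at 0.43 ± 0.08 in the core and 0.78 ± 0.14 in the penumbra. Egln1, the main oxygen sensor of the HIF system, was lowest at -0.17 ± 0.23 and -0.27 ± 0.24. Siah2, which targets prolyl hydroxylases for breakdown, was at 0.37 ± 0.23 in the core and 0.22 ± 0.15 in the penumbra.

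Of 22 other HIF targets that were measured, 11 were above 0 on both arrays in the core (median 0.15) and 10 in the penumbra (median 0.08), with 2 and 3 below. The highest in the core was P4ha1, a collagen prolyl hydroxylase, at 0.72 ± 0.04. The secreted glycoprotein gene Stc2 was at 0.75 ± 0.18 in the penumbra. The lowest were Lox, a cross-linker of collagen, at -0.11 ± 0.13 in the core, and Angpt2, an angiopoietin, at -0.25 ± 0.01 in the penumbra. Epo was never well above background.

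Of 20 other glycolytic enzymes and transporters, 4 were above 0 on both arrays in each region, 3 below in the core and 7 below in the penumbra, with medians of -0.02 and -0.11. The highest were lactate transporters of the monocarboxylate family: Slc16a1 at 0.84 ± 0.20 (core) and 0.87 ± 0.25 (penumbra), and Slc16a3 at 0.60 ± 0.15 and 0.53 ± 0.21. The lowest were the aldolase gene Aldoc in the core, at -0.24 ± 0.80, and the phosphofructokinase gene Pfkl in the penumbra, at -0.32 ± 0.14. Of 10 genes of pyruvate dehydrogenase and its control, 4 were above and 4 below 0 in the core, and 3 and 3 in the penumbra. Among them the kinases related to Pdk1 differed in sign, with Pdk4 at 0.59 ± 0.01 (core) and 0.28 ± 0.04 (penumbra), and Pdk2 at -0.28 ± 0.02 and -0.24 ± 0.01. The phosphatase Pdp1, which acts against these kinases, was at 0.33 ± 0.02 and 0.26 ± 0.04.

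Around the secreted factors, 5 of 12 genes of the VEGF and adrenomedullin families and their receptors were above 0 on both arrays in the core (median 0.11) and 9 of 12 in the penumbra (median 0.20). The VEGF co-receptor Nrp1 was highest in the core at 0.66 ± 0.05, and the related Nrp2 highest in the penumbra at 0.82 ± 0.12. Calca, which encodes calcitonin and the calcitonin gene-related peptide, was at 0.67 ± 0.19 in the penumbra, and Pgf, a relative of Vegfa, was lowest there at -0.11 ± 0.04. Of the proteins that turn the calcitonin receptor-like receptor into an adrenomedullin receptor, Ramp3 was at 0.34 ± 0.01 and Ramp2 at -0.38 ± 0.06 in the core.

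Around Ddit4, 4 of 10 genes of mTOR control were above 0 on both arrays in each region, with medians of -0.01 and -0.01. Its paralog Ddit4l was at 0.34 ± 0.13 (core) and 0.69 ± 0.02 (penumbra), and Rheb, the small GTPase that activates mTOR, at 0.44 ± 0.21 and 0.48 ± 0.19. Mtor itself was lowest in the core at -0.15 ± 0.09, and the mTOR inhibitor Deptor in the penumbra at -0.25 ± 0.16. Around Bnip3, 0 of 8 mitophagy genes in the core and 1 of 8 in the penumbra were above 0 on both arrays. Its paralog Bnip3l was at 0.02 ± 0.11 in the core, the mitophagy receptor Bcl2l13 at 0.12 ± 0.32 (core) and 0.10 ± 0.28 (penumbra), and the autophagy adaptor Sqstm1 at -0.08 ± 0.79 and -0.21 ± 0.71.

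Ddit4, Pdk4 and Per1 also respond to glucocorticoids, and Ddit4 to the stress factor ATF4. Of 7 glucocorticoid-responsive genes, 4 were above 0 on both arrays in the core and 3 in the penumbra. Fkbp5, a chaperone of the glucocorticoid receptor and a classical target of it, was lowest at -0.67 ± 0.07 in the core and -0.50 ± 0.11 in the penumbra, while Per1, a clock gene, was at 0.57 ± 0.50 and 0.56 ± 0.33. Of 9 ATF4 target genes, Atf4 included, 7 were above 0 on both arrays in the core (median 0.20) and 8 in the penumbra (median 0.32), with 0 below in either. The pseudokinase gene Trib3 was at 0.68 ± 0.20 in the core and 0.55 ± 0.17 in the penumbra, Chac1, which breaks down glutathione, at 0.84 ± 0.28 in the core, Atf4 at 0.51 ± 0.26 in the penumbra, and the serine synthesis gene Psat1 lowest at -0.05 ± 0.22 and -0.04 ± 0.16.

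**Figure D4:**
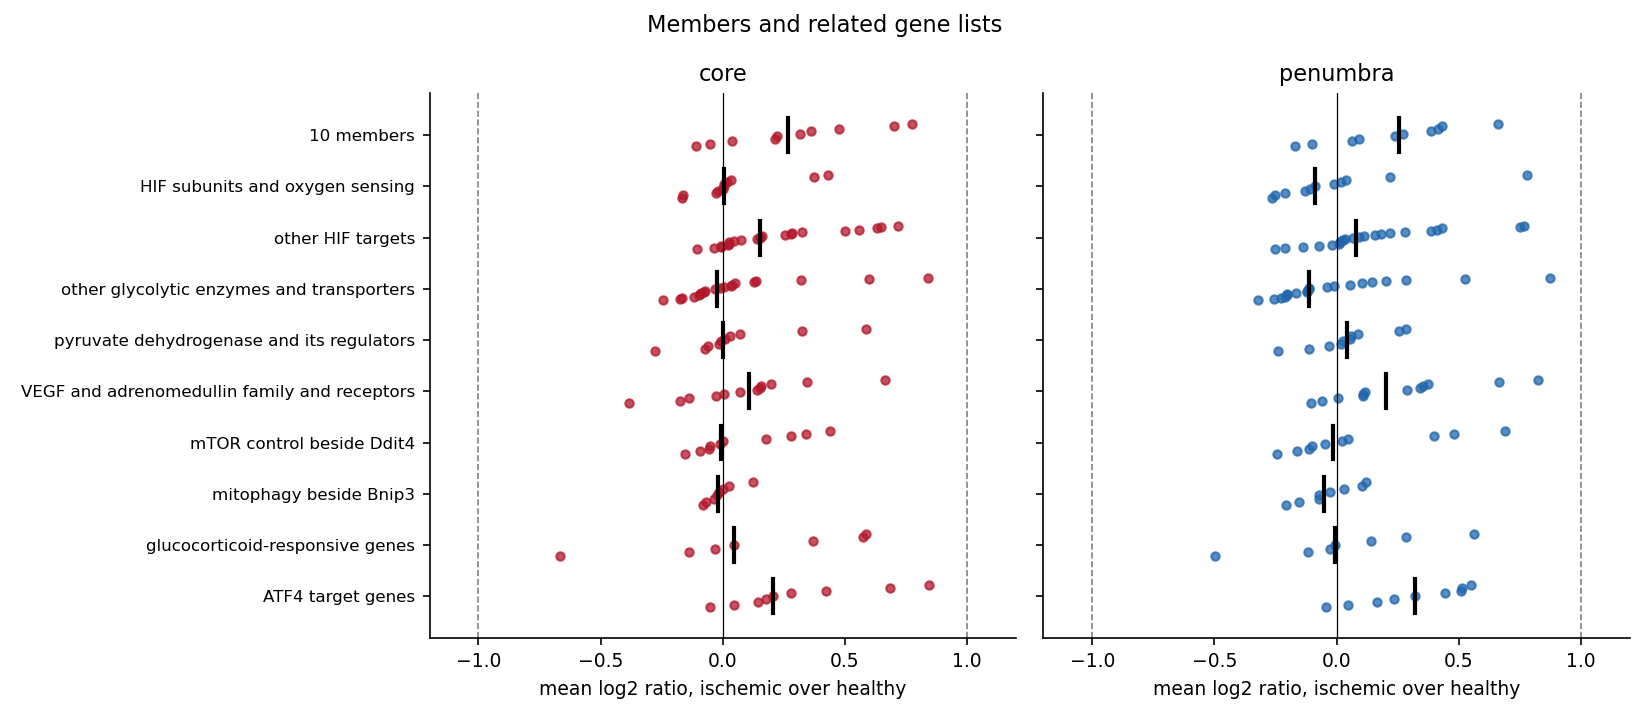
Mean log2 ratio of ischemic over healthy signal (horizontal axis) of each gene in the core (left) and the penumbra (right), by gene list, with black bars at list medians and dashed lines at 2-fold. The 10 members have medians of 0.27 and 0.26, the ATF4 target genes 0.20 and 0.32, and no point passes a dashed line.

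The genes most like 3 of the members in level were sought over the 8 channels, among 13361 genes that were well above background in all of them, by Euclidean distance after centring each gene within each dye. The 3 members were those with the widest range of mean level over the 4 tissues: Egln3 (0.83 log2), Adm (0.77) and Pfkfb3 (0.70). Closest to Egln3 were Crip3, Tbc1d1 and Cited1, at distances of 0.12, 0.13 and 0.15, against a median of 0.89 over all genes. Closest to Adm were Csrnp1, Tiparp and Mas1, at 0.13, 0.13 and 0.17, against a median of 1.1. Closest to Pfkfb3 were Procr, Tbc1d2 and Akap12, at 0.11, 0.12 and 0.14, against a median of 0.93. The 8 channels come from 4 arrays, so likeness also holds what those arrays share.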

How the data were processed

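RNA of 4 tissues was measured on 4 2-color Agilent arrays. Spot intensity in both dyes was deposited by the authors, from scans read with Agilent Feature Extraction (version 11.0.1.1), a tool named in the submitters' processing notes. The authors' deposited table holds log10 ratios, equal to Agilent's processed Cy5 over Cy3 signals, with column medians of -0.0215 and 0.00516 (core replicates 1 and 2) and -0.0199 and -0.0115 (penumbra replicates 3 and 4). As depth, the median signal of a spot was 192 to 225.5 (Cy3) and 284 to 310 (Cy5), over backgrounds of 64 to 66 and 70 to 71, with 76.1% to 79.4% of spots well above background and 0 saturated.

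Median signals, used because the files held none of the planned mean signals, were corrected with normexp (offset 50) and loess in limma 3.58.1 (R 4.3.3), with control and outlier spots at weight 0. Of 41174 probes, 23374 were named through accessions in a GRCm38.p6 table, and promoter sequences come from RefSeq tables of the same build. The brightest probe stood for a gene. A feature entered a region if, in 1 of its tissues or both, the 2 arrays read it well above background. Levels are single channels after loess and Aquantile. Other software was Python 3.11.15, pandas 2.3.3, numpy 2.4.6 and matplotlib 3.10.9. The number of arrays limits the precision, and a dye-swapped pair counts as 1 replicate, so there was no replicate check of ischemia. With 1 slide, no slide batch could be tested. Scripts for the tests were tested on simulated data.

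The 10 genes and all lists were chosen with earlier results of these data known. All members were described. From each list the 2 highest and 1 lowest genes per region were named, measured in both tissues, except for items that are not reported here. For the 3 members with the widest range, the 3 closest genes were named. Vhl, Ndrg1, Gapdh, Pdp2, Zbtb16, Ly6g, Hbb-b1 and Hbb-b2 were not analysed here.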

Additional observations from a re-analysis of the deposited data

How the results depend on the processing

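No paired analysis was possible because the core arrays carry replicate numbers 1 and 2 and the penumbra arrays 3 and 4, so no number is shared. The regions share only dye orientations, which the dye term and the levels within each dye use. Counts of called features depended on how the signals were processed. With Agilent's processed signals, which replace both the background correction and the normalization, and with the authors' deposited table alike, 245 features were called in the core (230 higher, 15 lower) and 219 in the penumbra (189 higher, 30 lower), against 76 and 61. With normexp without offset, chosen after seeing the data, there were 150 in the core (149 higher, 1 lower) and 115 in the penumbra (109 higher, 6 lower). For the difference between regions, processed signals gave 179 features, normexp without offset 56, limma over arrays 7, and leaving out 1 array 24 to 35, against 15. Between healthy pieces the counts were 861 with processed signals, 521 without offset and 461 in Cy5 alone, against 282. Between ischemic pieces they were 1040, 632 and, in Cy3 alone, 543, against 337. Scaled to spike-in transcripts, the split of higher and lower calls was 31 and 29 (core), 31 and 15 (penumbra), 8 and 10 (difference), 203 and 155 between ischemic pieces and 139 and 153 between healthy pieces. The splits without that scaling were 76 and 0, 60 and 1, 10 and 5, 110 and 227, and 78 and 204.

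Called members stayed at 0 under every alternative run except Cy5 alone between healthy pieces, where 1 member, Ldha, was called, at -1.07. The median of the 10 ratios fell below 0 only with spike-in scaling, at -0.21 (core) and -0.14 (penumbra). The shift behind that scaling had opposite signs on the arrays of each region. Centring each array on its median in place of loess gave a median of 0.28 in the core and 0.15 in the penumbra. In the penumbra Adm was then at 0.57, Ddit4 at 0.18 and Slc2a1 at -0.04. Leaving out 1 array gave medians of 0.15 to 0.36 in the core and 0.12 to 0.39 in the penumbra. The mean over probes gave Pfkfb3 0.51 in the core and 0.35 in the penumbra. Adm, Pfkfb3, Egln3 and Hk2 had means above 0 in both regions under each alternative, except Hk2 with spike-in scaling, at -0.11 (core) and -0.01 (penumbra). The cause of the changes in these counts was not tested.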
